A study of Rattus norvegicus with 6 samples.

Results

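The genes described here move high-energy phosphate, adenine nucleotides, oxygen and fatty acid inside heart muscle cells, and they were examined in bulk RNA sequencing of rat myocardium. The list was set by gene function and holds 10 genes: Ckm, Ckmt2, Ckb and Slc6a8 for creatine, Ak1, Slc25a4, Slc25a5 and Vdac1 for adenine nucleotides, and Mb and Fabp3 for oxygen and fatty acid. Of these, 9 had a row among the 32623 genes of the table and Ak1 was not analysed here. All 9 passed the filter of a mean of at least 0.5 FPKM (fragments scaled to gene length and library size), which left 13964 genes for testing. The sham group (n = 3) and the ischemia group (n = 3) were male rats of genotype WT, with 30 min in the labels of both groups. The labels of both groups describe anesthesia, ventilation and a left thoracotomy. In the ischemia group the left anterior descending coronary artery was tied, and no tie is described for sham. Strain, age and the part of the heart sampled are not given in the sources used here.

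A heart muscle cell makes most of its ATP in mitochondria and spends it at the myofilaments and ion pumps. Adenine nucleotide translocases exchange ADP for ATP across the inner mitochondrial membrane, porins such as Vdac1 pass nucleotides through the outer membrane, and mitochondrial creatine kinase hands the phosphate to creatine. Cytosolic creatine kinases use phosphocreatine to remake ATP where it is spent, myoglobin stores and carries oxygen, and the heart fatty acid binding protein carries fatty acids through the cytosol. Several of these proteins are abundant in cardiomyocytes and are known as blood markers of heart muscle injury.

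The 6 libraries held 68529126 to 79591989 counts each, of which the 9 genes took 0.951% to 3.15%. Every cardiomyocyte marker that was found (8 of 10) was detected in all 6 libraries, and their summed level was 25929 to 31950 FPKM in sham and 8630 to 16977 FPKM in ischemia. The sham libraries did not match each other in heart chamber markers. The 3 atrial markers summed to 15116 and 14092 FPKM in sham 1 and sham 3 but to 147.1 FPKM in sham 2, and the ventricular pair Myl2 and Myl3 summed to 1162, 1368 and 11819 FPKM in the same order. In ischemia 1 to 3 the atrial sum was 2179, 27.2 and 28.3 FPKM and the ventricular sum was 7006, 3774 and 7018 FPKM. The 9 neutrophil and monocyte markers summed to 17.2 to 24.7 FPKM in sham and to 523.5, 3945 and 541.0 FPKM in ischemia 1 to 3, with Fpr1 listed at 0.0001 FPKM, the value for no reads, in every library but ischemia 2. The lung epithelium markers summed to 401.9 FPKM in ischemia 1 against at most 15.1 FPKM elsewhere. All rats are labelled male, yet Y-linked genes held 161 counts in sham 1 and 3218 to 8970 in each other library. A fit with the atrial markers as a covariate is given with the fold changes below, and the part of the other differences in the results was not tested. Results that rest on sham 2 are given with and without it. Leaving out sham 2 leaves sham 1 and sham 3, so those values set sham libraries with high atrial sums against ischemia.

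Promoter sequence is shown for 4 of the genes, namely the most abundant creatine kinase and the most abundant gene of the list (Ckm, Mb) and the pair whose sham and ischemia levels did not overlap (Ckb, Slc25a5). Each run holds the 250 bases before the start of the gene in RefSeq on build GRCr8, written 5′ to 3′ on the gene's strand, at chr1:88189211-88189460 (+) for Ckm, chr7:110647743-110647992 (-) for Mb, chr6:136553465-136553714 (-) for Ckb and chrX:120897366-120897615 (+) for Slc25a5. Capitals mark matches on either strand to the motifs searched. These were the TATA box core TATAA, the E-box CAGCTG, the CCAAT box, the GC box GGGCGG and ACGTG, a form of the hypoxia-factor core. The MEF2 motif and the CArG motif, given here by name, were searched too. Other forms of the hypoxia-factor core were not searched.
Ckm: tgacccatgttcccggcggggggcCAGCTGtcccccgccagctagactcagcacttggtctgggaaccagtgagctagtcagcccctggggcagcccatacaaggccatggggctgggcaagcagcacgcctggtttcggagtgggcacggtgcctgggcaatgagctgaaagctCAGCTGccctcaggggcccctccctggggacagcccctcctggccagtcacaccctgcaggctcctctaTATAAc
Mb: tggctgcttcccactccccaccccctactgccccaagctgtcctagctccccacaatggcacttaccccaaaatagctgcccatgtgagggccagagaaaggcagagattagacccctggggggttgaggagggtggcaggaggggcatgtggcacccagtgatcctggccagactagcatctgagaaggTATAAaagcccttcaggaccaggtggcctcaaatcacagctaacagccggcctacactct
Ckb: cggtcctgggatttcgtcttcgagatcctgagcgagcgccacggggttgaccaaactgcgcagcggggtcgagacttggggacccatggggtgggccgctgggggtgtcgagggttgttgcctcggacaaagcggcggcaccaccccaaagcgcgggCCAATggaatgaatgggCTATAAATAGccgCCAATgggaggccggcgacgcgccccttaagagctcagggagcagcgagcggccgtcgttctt
Slc25a5: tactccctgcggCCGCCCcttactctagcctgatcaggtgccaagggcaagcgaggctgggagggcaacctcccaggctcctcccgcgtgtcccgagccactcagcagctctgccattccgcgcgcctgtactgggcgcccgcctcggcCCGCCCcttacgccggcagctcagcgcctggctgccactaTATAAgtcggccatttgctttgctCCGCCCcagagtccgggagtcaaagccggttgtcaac

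All 9 genes matched the RefSeq promoter table. TATAA was present in 5 of the 9 windows and in 24.0% of the 33469 rat promoter windows of the same length. In Ckb the TATAA match lies inside the single MEF2 match of the list, a motif held by 2.96% of all windows, and is flanked by a pair of CCAAT boxes. CAGCTG occurred at 226 and 75 bases before the start of Ckm and once in Ckmt2 (12.0% of all windows). GGGCGG occurred in 4 genes (30.5% of all windows), with 3 copies each in Slc25a5 and Vdac1. CCAAT was found in 3 genes (34.0%), ACGTG in Vdac1 alone (16.6%) and CArG in none of the 9 windows (1.5%). The windows differed in base composition. Mb held 1 CG dinucleotide and Ckm 6, near the median of 5 over all windows, while Slc25a5 held 20, Ckb 25 and Vdac1 33. A match is a description of these letters and not evidence of binding. In the expression table, whose genome build is not given in the sources used here, Ckm spans positions 80321585 to 80331841 of chromosome 1, Mb 118101634 to 118108864 of chromosome 7, Ckb 136142956 to 136145837 of chromosome 6 and Slc25a5 123404518 to 123407645 of chromosome X.

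**Figure D1:**
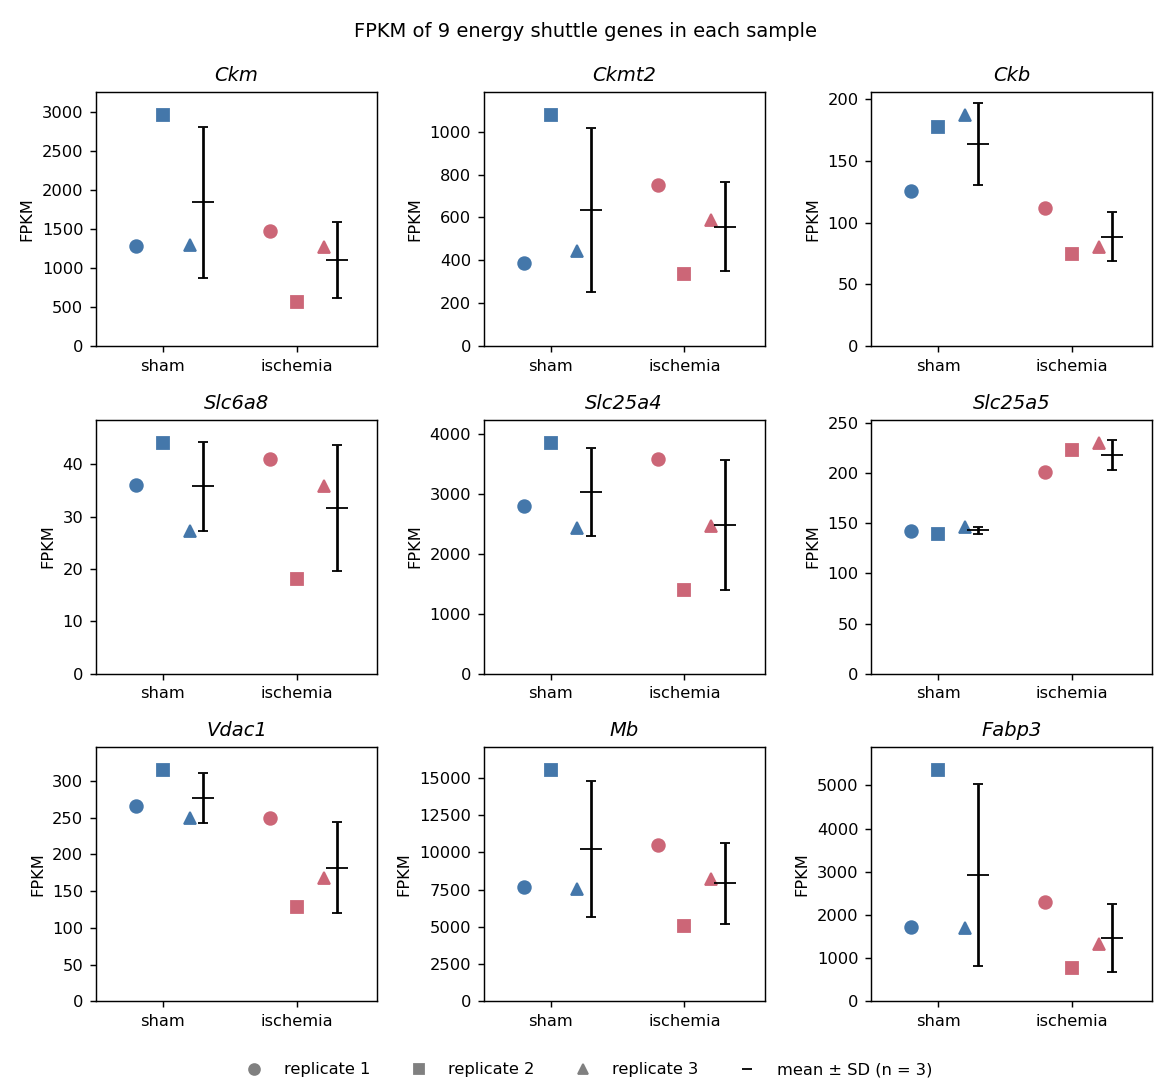
Level of each of the 9 genes in FPKM (linear axis from 0, 1 panel per gene) in the 3 sham and 3 ischemia libraries, 1 point per library, with the group mean and SD beside the points. Only Ckb, lower in ischemia, and Slc25a5, higher in ischemia, have groups that do not overlap, and sham 2 is the highest point in 7 of the 9 genes.

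No gene of the list passed the adjusted threshold of 0.05 in the quasi-likelihood test of edgeR, in either direction, whereas 5.18% of all tested genes passed as higher in ischemia and 1.53% as lower. At an unadjusted p under 0.05 the edgeR test held 2 of the 9, Ckb and Slc25a5, against 32.4% of all tested genes. DESeq2, run as an alternative, called 1 gene higher (Slc25a5) and 1 lower (Ckb), against 14.8% and 12.5% of all tested genes. FPKM did not overlap between the groups in 1 gene that was higher in ischemia and 1 that was lower, while 23.6% and 15.0% of tested genes did not overlap in these directions. The fitted log2 fold change was below 0 in 8 of the 9 genes, with a median of -0.51, beside 50.1% of tested genes below 0 and a median of -0.0015. Without sham 2 it was below 0 in 5 of the 9 genes. In bulk tissue, fewer cells of a type and less RNA per cell cannot be told apart.

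Ckm (ENSRNOG00000016837), the muscle cytosolic creatine kinase, was the most abundant creatine kinase transcript per length in every library. Its level was 1280, 2964 and 1294 FPKM in sham 1 to 3 and 1481, 559.6 and 1277 FPKM in ischemia 1 to 3. The groups overlapped, because ischemia 1 lay above sham 1 and sham 3 and only sham 2 stood apart at the top and ischemia 2 at the bottom. The mean level was 1846 ± 968 FPKM in sham and 1106 ± 484 FPKM in ischemia (SD, n = 3 each), and the log2 fold change was -0.88 ± 0.60 (SE, edgeR adjusted p = 0.334). Without sham 2 the log2 fold change was -0.18.

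Ckmt2 (ENSRNOG00000055450), the sarcomeric creatine kinase of the mitochondrial intermembrane space, had 386.4, 1078 and 442.6 FPKM in sham and 749.4, 334.4 and 589.6 FPKM in ischemia. Both ischemia 1 and ischemia 3 exceeded sham 1 and sham 3. The log2 fold change of -0.34 ± 0.58 (SE, edgeR adjusted p = 0.703) took its sign from sham 2 and was 0.46 without that library. With sham 2 as the only sham library it was -1.23.

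Ckb (ENSRNOG00000010872), the creatine kinase typical of brain and of smooth muscle, was the creatine gene with separate groups. It had 125.6, 177.7 and 187.3 FPKM in sham and 111.7, 74.3 and 80.4 FPKM in ischemia, from 13676, 20579 and 19418 counts against 13152, 7958 and 8154. All 3 ischemia libraries were below all 3 sham libraries, with ischemia 1 closest to sham 1. The mean level in sham, 163.6 ± 33.2 FPKM, was 1.84 times that in ischemia, 88.8 ± 20.1 FPKM (SD, n = 3 each). Its fitted log2 fold change, -0.98 ± 0.29 (SE), had an unadjusted p of 0.0142 and an adjusted p of 0.0854 in edgeR, and DESeq2 gave an adjusted p of 0.0133. Unlike the other creatine kinases, Ckb was not set apart in sham 2, where its level was 1.14 times the mean of sham 1 and sham 3, and without sham 2 its log2 fold change was -0.80. The 3 smooth muscle markers, which belong to a cell type that also makes this isoform, summed to 525.8 FPKM in sham 3 and to 28.1 to 118.9 FPKM in the other libraries, and their part in the level of Ckb was not tested.

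Slc6a8 (ENSRNOG00000057620), which takes creatine up through the plasma membrane, was the least abundant of the 9 genes in every library. Its level was 36.0, 44.1 and 27.2 FPKM in sham and 40.9, 18.2 and 35.8 FPKM in ischemia. The groups overlapped and the log2 fold change was -0.28 ± 0.42 (SE, edgeR adjusted p = 0.660). That value changed sign when either sham 2 (0.037) or ischemia 2 (0.023) was left out.

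**Figure D2:**
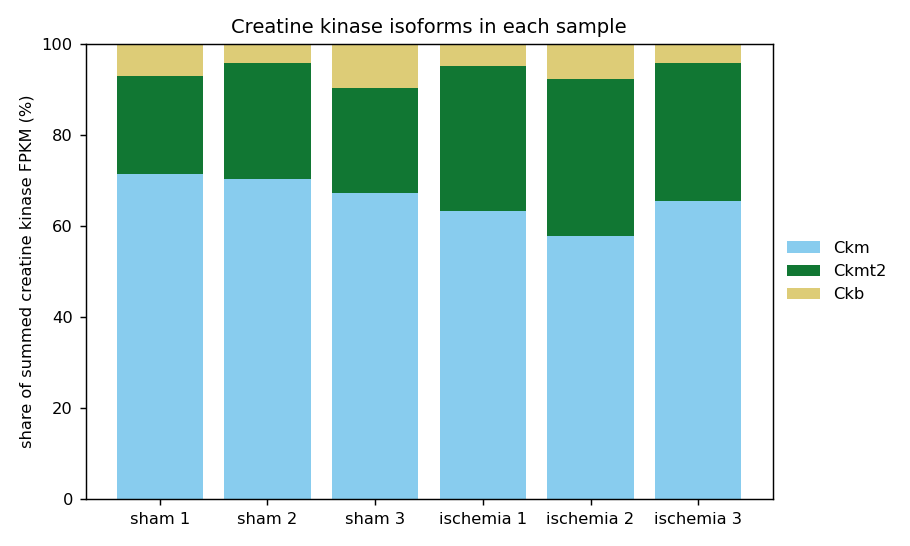
Share of the summed creatine kinase FPKM (percent, bars starting at 0) that came from Ckm, Ckmt2 and Ckb in each of the 6 libraries. The Ckmt2 share lies between 21.6% and 25.5% in sham and between 30.3% and 34.5% in ischemia.

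Setting the creatine kinases against each other within a library removed the differences in scale between libraries. Ckm made up 71.4%, 70.2% and 67.3% of the summed FPKM of the 3 isoforms in sham and 63.2%, 57.8% and 65.6% in ischemia. Ckmt2 made up 21.6%, 25.5% and 23.0% in sham and 32.0%, 34.5% and 30.3% in ischemia, so that each ischemia library was above each sham library. The log2 ratio of Ckmt2 to Ckm was -1.58 ± 0.14 in sham and -0.95 ± 0.19 in ischemia (SD, n = 3 each), a difference of 0.63. The two-sided exact permutation test gave p = 0.1, the smallest that 3 against 3 allows, and an adjusted p of 0.25 over the 5 ratios compared. This difference kept its sign when any single library was left out, including sham 2. By contrast the share of Ckb was 7.01%, 4.21% and 9.74% in sham and 4.77%, 7.67% and 4.13% in ischemia, with overlapping groups. The log2 ratio of Ckb to Ckm differed by -0.15 between the groups (exact permutation p = 0.8, adjusted p = 0.8), and its sign turned without sham 3 or without ischemia 3. Ckb separated the groups as a level and overlapped as a share of the creatine kinases.

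Slc25a4 (ENSRNOG00000010830), the adenine nucleotide translocase that prevails in heart and skeletal muscle, had 2805, 3857 and 2431 FPKM in sham and 3580, 1405 and 2470 FPKM in ischemia. Ischemia 1 was above sham 1 and sham 3, and ischemia 2 was the lowest of all libraries. The log2 fold change was -0.39 ± 0.47 (SE, edgeR adjusted p = 0.583) and moved to -0.041 without sham 2, to -0.088 without ischemia 2 and to -0.76 without ischemia 1.

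Slc25a5 (ENSRNOG00000039980), the translocase isoform that many proliferating and non-muscle cells use, was the only gene of the list with a positive fold change. Its level was 142.5, 139.8 and 146.2 FPKM in sham and 201.0, 223.1 and 230.4 FPKM in ischemia, from 16513, 17225 and 16131 counts against 25197, 25451 and 24879. All 3 ischemia libraries were above all sham libraries, and neither sham 2 nor ischemia 2 stood apart. The mean was 142.8 ± 3.23 FPKM in sham and 218.2 ± 15.3 FPKM in ischemia (SD, n = 3 each), which is 1.53 times the sham level. Its fitted log2 fold change, 0.52 ± 0.19 (SE), had an unadjusted p of 0.0309 and an adjusted p of 0.122 in edgeR, and DESeq2 gave an adjusted p of 0.0392. The sum of the neutrophil and monocyte markers was likewise higher in every ischemia library than in any sham library, as were 8 of the 9 markers, and their part in the level of Slc25a5 was not tested.

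The proportion of the pair of translocases varied between libraries. Slc25a5 made up 4.83%, 3.50% and 5.67% of their summed FPKM in sham and 5.32%, 13.7% and 8.53% in ischemia. The groups overlapped at ischemia 1, and the log2 ratio of Slc25a5 to Slc25a4 was 0.97 higher in ischemia (exact permutation p = 0.2, adjusted p = 0.25). The difference was 0.59 without ischemia 2 and 1.34 without ischemia 1. In each library Slc25a4 remained the more abundant translocase.

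Vdac1 (ENSRNOG00000006375), the main porin of the outer mitochondrial membrane, had 265.2, 314.5 and 249.6 FPKM in sham and 250.0, 128.1 and 167.7 FPKM in ischemia. The groups touched at a single point, ischemia 1 against sham 3. The mean was 276.4 ± 33.9 FPKM in sham and 181.9 ± 62.2 FPKM in ischemia (SD, n = 3 each), with a log2 fold change of -0.70 ± 0.34 (SE, edgeR adjusted p = 0.204). It was -0.47 without sham 2. The log2 ratio of Vdac1 to Slc25a4 differed by -0.29 between the groups, which overlapped (exact permutation p = 0.2, adjusted p = 0.25).

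Mb (ENSRNOG00000004583) encodes myoglobin and was the most abundant of the 9 genes in every library. It had 7689, 15519 and 7549 FPKM in sham and 10474, 5075 and 8186 FPKM in ischemia. As for Ckmt2, ischemia 1 and ischemia 3 exceeded sham 1 and sham 3, and the log2 fold change of -0.51 ± 0.53 (SE, edgeR adjusted p = 0.526) became 0.087 without sham 2.

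Fabp3 (ENSRNOG00000012879), the heart fatty acid binding protein, had the widest range of the list as a ratio, with 6.99 times as much in the highest as in the lowest library. Its level was 1711, 5351 and 1689 FPKM in sham and 2307, 765.5 and 1321 FPKM in ischemia. Sham 2 held 3.15 times the mean of sham 1 and sham 3, and ischemia 1 held 3.01 times the level of ischemia 2. The log2 fold change of -1.16 ± 0.70 (SE, edgeR adjusted p = 0.286) was the most negative of the 9, overlapped between the groups and was -0.18 without sham 2.

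Within libraries Mb and Fabp3 did not keep a fixed proportion. Mb was 4.49, 2.90 and 4.47 times Fabp3 in sham and 4.54, 6.63 and 6.20 times Fabp3 in ischemia. The groups did not overlap, although ischemia 1 was only just above sham 1. The log2 ratio was 1.95 ± 0.36 in sham and 2.51 ± 0.29 in ischemia (SD, n = 3 each), a difference of 0.56 (exact permutation p = 0.1, adjusted p = 0.25). It was 0.35 without sham 2 and at most 0.73 with 1 library left out.

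**Figure D3:**
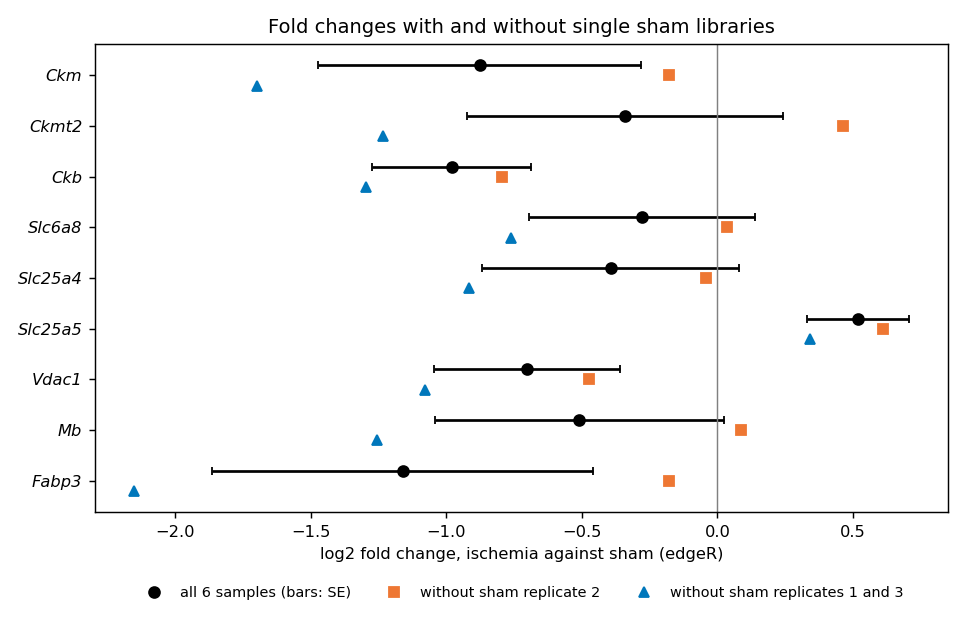
Fitted log2 fold change (ischemia minus sham) of each gene with all 6 libraries, with SE bars, and again without sham 2 and without sham 1 and sham 3. Leaving out sham 2 moves Ckmt2, Mb and Slc6a8 above 0, while Ckb stays below 0 and Slc25a5 above 0 in each of the 3 fits.

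Ranked by mean FPKM in sham, the order was Mb, Slc25a4, Fabp3, Ckm, Ckmt2, Vdac1, Ckb, Slc25a5 and Slc6a8. In ischemia the first 5 places were the same, followed by Slc25a5, Vdac1, Ckb and Slc6a8. The sample ranges of Slc25a4 and Fabp3 overlapped in both groups, as did those of Fabp3 and Ckm. In ischemia the ranges of Ckm and Ckmt2 and of Slc25a5 and Vdac1 overlapped too. In sham the ranges of Ckb and Slc25a5 also overlapped, whereas in ischemia the lowest Slc25a5 value (201.0 FPKM) was above the highest Ckb value (111.7 FPKM).

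**Figure D4:**
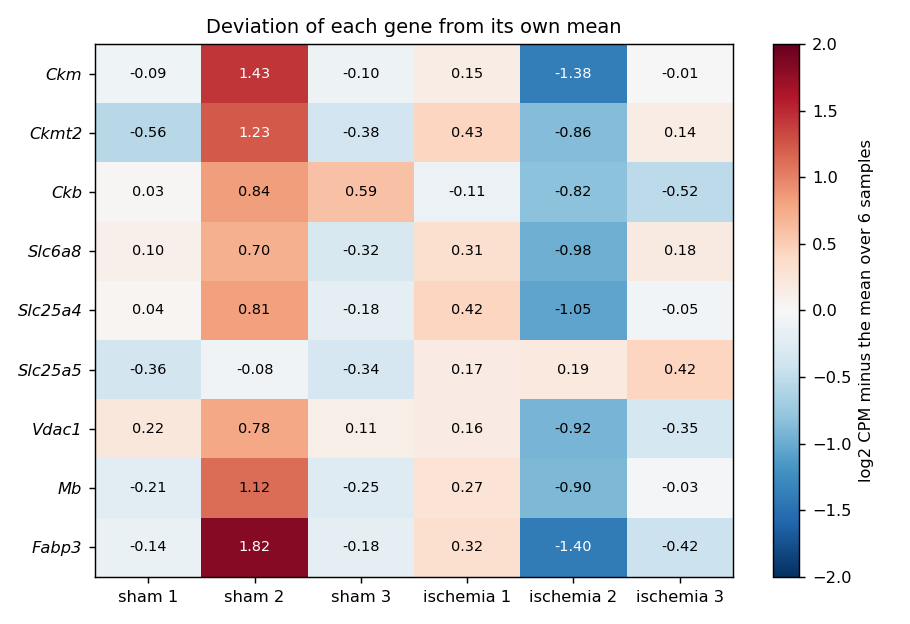
Colour map of log2 CPM (counts scaled to library size, here by the trimmed mean of M-values) of each gene in each library, as the difference from the mean of that gene over the 6 libraries. Sham 2 lies above the mean and ischemia 2 below it in every gene but Slc25a5.

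A common pattern ran through the list apart from Slc25a5. Sham 2 held the highest FPKM of all libraries in 7 of the 9 genes, Ckb and Slc25a5 being the others, and ischemia 2 the lowest in 8 of the 9. The same counts were not made over all tested genes. The pattern was not particular to the list. Of the cardiomyocyte markers, Tnnt2, Tnni3, Myh6 and Mybpc3 were also highest in sham 2 and lowest in ischemia 2, while Actc1, Actn2, Ryr2 and Atp2a2 were not. The excess of sham 2 over the mean of sham 1 and sham 3 differed between genes. It was 3.15-fold for Fabp3, 2.60-fold for Ckmt2, 2.30-fold for Ckm and 2.04-fold for Mb, but 1.47-fold for Slc25a4, 1.40-fold for Slc6a8 and 1.22-fold for Vdac1. The mean of ischemia was above the mean of sham 1 and sham 3 in 4 of the 9 genes and below the level of sham 2 in 8 of the 9. Sham 2 had the lowest atrial and the highest ventricular sum of the sham group, and the highest cardiomyocyte sum of all libraries. Ischemia 2 had the lowest cardiomyocyte and the highest neutrophil and monocyte sum of all libraries. A fit with sham 2 as the only sham library assumes that a lone library varies like the other group. In it the log2 fold change was -1.70 for Ckm, -1.23 for Ckmt2, -1.30 for Ckb, -0.76 for Slc6a8 and -0.92 for Slc25a4. For the other genes it was 0.34 for Slc25a5, -1.08 for Vdac1, -1.26 for Mb and -2.15 for Fabp3. With the mean log2 level of the atrial markers as a covariate and all 6 libraries, the log2 fold change was -1.02 for Ckm, -0.50 for Ckmt2, -0.98 for Ckb, -0.33 for Slc6a8, -0.40 for Slc25a4, 0.38 for Slc25a5, -0.67 for Vdac1, -0.64 for Mb and -1.24 for Fabp3. All 9 kept their direction in that fit, and the edgeR adjusted p was 0.281 for Ckb and 0.450 or more for the others.

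**Figure D5:**
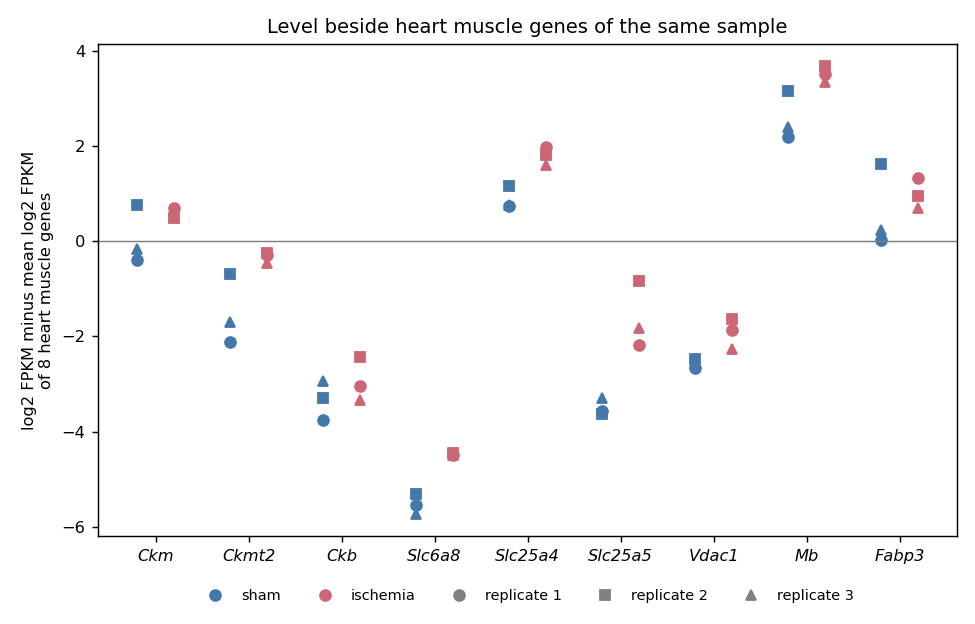
Log2 FPKM of each gene minus the mean log2 FPKM of 8 cardiomyocyte genes in the same library, 1 point per library. With this mean as the reference, ischemia lies above sham without overlap in 6 of the 9 genes, and Ckm, Ckb and Fabp3 overlap.

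The 9 genes were also set against other heart muscle genes of the same library. The 8 cardiomyocyte markers had log2 fold changes from -2.38 to -0.43 (median -1.31), of which 8 of 8 were below 0 and none passed the adjusted threshold of edgeR, with 6 of 8 lower in ischemia without overlap, against 15.0% of all tested genes. Relative to the mean of these markers, 6 of the 9 genes were higher in ischemia without overlap, against 67.9% of all tested genes, so this share is near the background. The differences on the log2 scale were 1.89 for Slc25a5, 1.17 for Ckmt2, 1.05 for Slc6a8, 0.93 for Mb, 0.92 for Slc25a4 and 0.63 for Vdac1 (exact permutation p = 0.1 and adjusted p = 0.15 for each). Ckm (0.54), Ckb (0.40) and Fabp3 (0.37) had overlapping groups (exact permutation p between 0.4 and 0.5, adjusted p = 0.5 for each). These values depended on the reference and on single libraries. With the median of the same 8 markers in place of their mean, the differences were 1.21 for Ckm, 1.06 for Ckb and 1.03 for Fabp3 (exact permutation p = 0.1, 0.1 and 0.2), and 8 of the 9 genes did not overlap, against 83.1% of all tested genes. With 1 library left out, Ckm ranged from 0.31 (without sham 1) to 0.89 (without sham 2), Ckb from 0.14 (without ischemia 2) to 0.60 (without ischemia 3) and Fabp3 from 0.069 (without sham 1) to 0.87 (without sham 2). The median over all tested genes was 1.37 relative to the mean of the markers and 2.03 relative to their median, and Slc25a5 was the only gene of the list above it on either scale.

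Slc6a8 was the steadiest of the 9 genes on this relative scale within ischemia. Its log2 level beside the cardiomyocyte markers was -4.48, -4.46 and -4.50 in ischemia 1 to 3 and -5.54, -5.30 and -5.72 in sham 1 to 3. All 3 ischemia libraries lay above all 3 sham libraries, as was so for 67.9% of all tested genes on this scale. The difference of 1.05 was below the median of 1.37 over all tested genes. For Mb the same measure was 3.52, 3.67 and 3.34 in ischemia and 2.19, 3.16 and 2.39 in sham, with sham 2 the closest to ischemia.

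Other genes of the same routes were taken from a list of 46 symbols, for which 42 rows were found and 34 passed the filter. Of these 34, 1 passed the adjusted threshold of edgeR as higher in ischemia and none as lower, against 5.18% and 1.53% of all tested genes. Their fold change was above 0 in 13 and below 0 in 21, with a median of -0.38 on the log2 scale, beside 50.1% of all tested genes below 0. FPKM did not overlap in 8 that were higher and 10 that were lower, which is to be read against the 23.6% and 15.0% of all tested genes. The gene that passed was Nme1, a nucleoside diphosphate kinase that moves phosphate from ATP to other nucleotides. Nme1 had 29.0, 18.7 and 32.8 FPKM in sham and 47.4, 62.9 and 53.7 FPKM in ischemia, with a log2 fold change of 0.96 ± 0.19 (SE, edgeR adjusted p = 0.0445). All 3 ischemia libraries were above all sham libraries, but the call was held in 8 of 21 alternatives, while the log2 fold change stayed between 0.83 and 1.24 in all 21. In edgeR the call was lost without sham 1 (log2 fold change 0.98, adjusted p = 0.165), sham 2 (0.83, 0.0922), sham 3 (1.07, 0.140), ischemia 2 (0.90, 0.0729) or ischemia 3 (0.93, 0.145). It was also lost in edgeR with the atrial covariate (1.03, adjusted p = 0.219), the replicate block (0.97, 0.127), total counts only (1.03, 0.0696), no expression filter (0.98, 0.0541) and without sham 1 and sham 3 together (1.24, 0.394), and in limma on FPKM with each pseudocount (adjusted p from 0.0534 to 0.0558).

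Among the adenylate kinases and the enzymes of the purine nucleotide cycle, 6 of 9 tested rows were above 0 and 3 of 9 below. Ampd3, an AMP deaminase, had 12.0, 17.9 and 10.4 FPKM in sham and 22.3, 24.1 and 39.4 FPKM in ischemia, with separate groups and a log2 fold change of 0.97 (edgeR adjusted p = 0.147). Of the pair of rows that carry the symbol Ak6, the one on chromosome 20 (72 to 438 counts) had overlapping groups. Its log2 fold change was 1.01 (edgeR adjusted p = 0.233). The row on chromosome 2 (2373 to 7280 counts) also overlapped, with a log2 fold change of 0.31 (edgeR adjusted p = 0.548). Reads of such copies may have been split. Among the nucleotide and phosphate carriers and porins, 2 of 6 were above 0 and 4 of 6 below. Slc25a24, a mitochondrial carrier of ATP-Mg and phosphate, had the largest positive fold change, with 3.93, 2.83 and 5.37 FPKM in sham, 5.61, 14.8 and 10.6 FPKM in ischemia and a log2 fold change of 1.28 (edgeR adjusted p = 0.0772).

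All 4 tested genes of creatine synthesis, transport and other kinase isoforms were below 0. Slc16a12, which transports creatine out of cells, had 7.19, 0.748 and 3.94 FPKM in sham and 0.709, 0.290 and 0.435 FPKM in ischemia, and its log2 fold change of -3.03 was the most negative (edgeR adjusted p = 0.0654). Its sham libraries followed the atrial markers, with sham 2 close to ischemia 1, and the part of the chamber in this difference was not tested. Ckmt1, the other mitochondrial creatine kinase, was scarce, with 0.597, 0.0806 and 3.73 FPKM in sham and 0.608, 0.0597 and 0.0572 FPKM in ischemia (log2 fold change -2.54, edgeR adjusted p = 0.272). Acsl1, which activates long-chain fatty acids, had 128.1, 202.2 and 124.7 FPKM in sham and 77.3, 20.8 and 38.0 FPKM in ischemia, with separate groups and a log2 fold change of -1.85 (edgeR adjusted p = 0.0891). Of the nucleoside diphosphate kinases 2 of 4 were above 0 and 2 of 4 below, and of the globins and other fatty acid genes 1 of 5 was above 0 and 4 of 5 below. The subunits of the AMP-activated kinase had 2 of 6 fold changes above 0 and 4 of 6 below, and none passed.

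Finally, the tested gene with the most similar profile was found for the genes of the list, as the smallest root mean square difference of centred log2 CPM over the 6 libraries. For Mb it was Uqcrc1, a core subunit of respiratory complex III (0.0608 on the log2 scale), and for Ckm it was Idh2, the mitochondrial isocitrate dehydrogenase (0.106). Slc25a5 was closest to Vps37c (0.0302), Vdac1 to Zfp213 (0.0389), Ckmt2 to Plbd1 (0.0930), Slc6a8 to Ribc1 (0.0973), Ckb to Fam78a (0.102) and Fabp3 to Adam1a (0.156). With 6 libraries and 13964 genes to choose from, close profiles are easily found, and the likeness is a description.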

How the data were processed

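The authors deposited 1 table for all 6 samples with raw read counts per gene, not normalized, and FPKM, which the authors had computed from the counts, with 0.0001 for genes without reads. STAR and HTSeq are named in the submitters' processing notes, and versions and genome build are not given in the sources used here. The library kit kept strand, and how reads of near-identical copies were counted is not given. Groups came from the treatment label of each sample and replicate numbers from the sample titles. The study describes its sequencing data as from independent experiments, and the labels do not say which animals the replicates came from, so p-values measure the spread between these samples.

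The 13964 genes (of 32623) whose FPKM averaged 0.5 or more were tested on the deposited counts with the quasi-likelihood test of edgeR (TMM scaling, no covariates, two-sided), with Benjamini-Hochberg adjustment over all of them and a threshold of 0.05. The SE of a log2 fold change came from the F statistic. Ratios within a library were compared by two-sided exact permutation tests on log2 FPKM, which cannot give p below 0.1 for 3 against 3, adjusted over 5 ratios or over the 9 genes (10 were planned, and Ak1 is not reported). The 10 listed genes were all to be named. Of the other genes of these routes, those past the adjusted threshold and the 3 with the largest fold change in each direction were named. The gene nearest in profile to Slc25a4 is not reported here. The members, lists and tests were chosen with earlier results of these data known.

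Alternatives were other scalings (RLE, upper quartile, total counts), other filters, removal of the mitochondrial genome, robust dispersion, DESeq2, limma on log2 FPKM with pseudocounts of 0.01, 0.1 and 1 and on quantile-normalized values, a replicate block, an atrial marker covariate and each library left out. The fit without sham replicates 1 and 3 was added after seeing the data. Libraries held 68529126 to 79591989 counts, so that 3 counts equal 0.0377 to 0.0438 CPM, a floor for counting error alone. Promoters came from a RefSeq table of GRCr8, shortened to the 250 bases before the start. The software was DESeq2 1.42.0, limma 3.58.1 and edgeR 4.0.16 under R 4.3.3, with scipy 1.17.1 and matplotlib 3.10.9 under Python 3.11.15.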

Additional observations from a re-analysis of the deposited data

How the results depend on the processing

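Across 21 alternatives, 185 of 189 fold changes of the 9 genes kept their direction. Those that turned were Ckmt2 (0.46), Slc6a8 (0.037) and Mb (0.087) without sham 2 and Slc6a8 (0.023) without ischemia 2, and with 1 library left out these values ranged from -0.64 to 0.46, from -0.51 to 0.037 and from -0.77 to 0.087. Only DESeq2 moved genes past the adjusted threshold, with 1 higher and 1 lower against none of either in edgeR. The adjusted p of Ckb ranged from 0.0133 to 0.394 and that of Slc25a5 from 0.0392 to 0.585, and their log2 fold changes from -1.30 to -0.80 and from 0.34 to 0.62. With 1 library left out, 5 to 8 of the 9 genes were below 0 (5 without sham 2), 1 to 4 had groups that did not overlap and were lower (2 without sham 3, 4 without ischemia 1, where 16.7% and 25.8% of all tested genes were so), and 1 was higher in each (25.7% to 31.2% of all tested genes). Of 35 ratio values 33 kept their direction, and the log2 ratio of Ckb to Ckm ranged from -0.48 to 0.16 with 1 library left out, turning to 0.16 without sham 3 and to 0.077 without ischemia 3. All 72 values relative to cardiomyocyte genes kept their direction over 8 alternatives. For these values and the ratios, CPM in place of FPKM could not turn a direction. Library size cancels within a library, and gene length cancels between the groups. The median of the marker list as reference shifts the difference of every gene by the same amount, here upward, so it could not turn these values either. Only the alternatives that left out a library tested the direction. The median reference raised Ckm from 0.54 to 1.21, Ckb from 0.40 to 1.06, Vdac1 from 0.63 to 1.29 and Mb from 0.93 to 1.59. Slc25a4 rose from 0.92 to 1.58, Slc6a8 from 1.05 to 1.71, Ckmt2 from 1.17 to 1.84 and Fabp3 from 0.37 to 1.03. Whether the replicate numbers pair the samples cannot be settled with 3 libraries per group, whose deviations offset each other. The correlation of same-numbered deviations was -0.0561, -0.0940 and -0.196, with a mean of -0.115. For libraries with other numbers the mean was 0.0553. With a replicate block 0 of the 9 genes passed in either direction, as without it, and 0 of all tested genes passed, with 3349 at an unadjusted p under 0.05 in edgeR (4528 without the block). Over all genes, edgeR also called none without any single sham library, without ischemia 3 or with the atrial covariate, and called 1490 higher and 1115 lower without ischemia 1 against 723 and 214 with all libraries. The cause was not tested. Each of the 9 genes held at least 5334 counts in every library.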
